A study of Mus musculus with 30 samples.

Results

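The genes of the GABA and glycine inhibitory synapse were examined in open chromatin of the mouse ventral hippocampus. The set holds 27 genes: GABA-A receptor subunits (Gabra2, Gabra3, Gabra4, Gabra5, Gabra6, Gabrb1, Gabrb2, Gabrg1, Gabrg3, Gabrd, Gabrr1 and Gabrr2), both GABA-B receptor subunits (Gabbr1 and Gabbr2), enzymes of GABA synthesis and breakdown (Gad1, Gad2 and Abat), GABA transporters (Slc32a1 and Slc6a11), chloride carriers (Slc12a2 and Slc12a5), a scaffold and an adhesion protein (Gphn and Nlgn2), and glycine receptor subunits (Glra1, Glra2, Glra3 and Glrb). A peak belonged to a gene when it overlapped the gene's RefSeq body extended by 10 kb on both sides. This gave 561 of the 257149 peaks of the table, and all 561 had enough counts to be tested. They fell to 26 of the 27 genes, and Gabra6 had none. A total of 472 lay in a gene body, and 4 were shared by Gabra4 and Gabrb1, whose starts overlap head to head on chromosome 5.

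GABA is the main fast inhibitory transmitter of the hippocampus, and glycine serves a smaller share of inhibitory receptors there. Interneurons make GABA from glutamate, load it into vesicles and release it onto GABA-A receptors, which are chloride channels of mixed subunits, and onto GABA-B receptors, which signal through G proteins. Gephyrin and neuroligins hold the receptors at the synapse, plasma membrane carriers clear GABA, and cation-chloride carriers set the chloride gradient that the channels use.

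The design sets acute restraint against a background of repeated restraint or of handling. ATAC-seq, which uses a transposase to insert adapters where DNA is accessible, was run on 50000 nuclei of each of 30 mice. The groups were 7 chronically restrained mice at 45 min (4 females and 3 males), 8 chronically restrained mice at 0 min (4 females and 4 males), 7 handled mice at 45 min (3 females and 4 males) and 8 handled mice at 0 min (4 females and 4 males). Chronic restraint was a daily session in a tube on 10 days, and handled mice were lifted by the tail instead. All mice then lived alone for 24 hours, and the 45 min mice were sampled 45 min after a restraint began, while the 0 min mice came from the home cage without it. All 4 groups thus shared single housing, and their nuclei came from 1 ventral hippocampus per mouse. The labels used here give no strain or age. Each library was 1 animal, so p-values measure the spread between animals.

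Library totals ran between 26104576 and 55294838 counts in peaks, and a median member peak held 66.9 counts per library. The 4 batches of the labels each held all 4 groups. Animal 45 stood apart. This library, from a handled female at 0 min in batch 4, had 42.1% of its counts in peaks within 1 kb of a gene end, against 37.7% to 40.3% in the other libraries, and a TMM scaling factor of 0.875 against 0.971 to 1.03. Changes of loci, and of peaks in the averaged comparisons, that turned sign or moved by over 1.5 times when it was left out are also given without it. All 8 excitatory neuron markers and all 8 interneuron markers had peaks. So did 3 of the 4 choroid plexus markers (Ttr, Folr1 and Kl, not Otx2), whose summed peaks held 33.03 to 37.2 CPM in chronic 45 min mice, 31.95 to 36.9 CPM in chronic 0 min mice, 33.02 to 35.95 CPM in handled 45 min mice and 31.3 to 40.3 CPM in handled 0 min mice. All 4 markers of neighbouring regions (Tcf7l2, Lhx9, Drd2 and Rora) had peaks too. Their sums were 150 to 167 CPM in chronic 45 min mice and 148 to 173 CPM in chronic 0 min mice. In handled mice they were 158 to 174 CPM at 45 min and 147 to 210 CPM at 0 min. The tissue is a mixture of cells, so fewer cells of a type and less accessibility per cell cannot be told apart.

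RefSeq promoter sequences (build GRCm38.p6, 250 bases before to 50 bases after a start) were matched for 23 of the 27 genes, with 28 promoters in all. The sequences below are those of the genes that define GABA neurons (Gad1, Gad2 and Slc32a1) and of the locus with the smallest p after acute restraint (Gabra2). Also given are the gene whose start peak had the smallest p among start peaks (Slc6a11), and those whose ranked start peaks were the most and least accessible (Gphn and Gabrr2). Capitals mark GGGCGG (the GC box) and TATAAA on either strand.
Gad1 (chr2:70561879-70562178, plus strand): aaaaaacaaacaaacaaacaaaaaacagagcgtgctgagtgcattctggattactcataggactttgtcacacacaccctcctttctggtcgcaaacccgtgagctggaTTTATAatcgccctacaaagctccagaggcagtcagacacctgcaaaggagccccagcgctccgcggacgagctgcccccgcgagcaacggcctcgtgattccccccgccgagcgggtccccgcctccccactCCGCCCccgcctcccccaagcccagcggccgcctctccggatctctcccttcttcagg
Gad2 (chr2:22622077-22622376, plus strand): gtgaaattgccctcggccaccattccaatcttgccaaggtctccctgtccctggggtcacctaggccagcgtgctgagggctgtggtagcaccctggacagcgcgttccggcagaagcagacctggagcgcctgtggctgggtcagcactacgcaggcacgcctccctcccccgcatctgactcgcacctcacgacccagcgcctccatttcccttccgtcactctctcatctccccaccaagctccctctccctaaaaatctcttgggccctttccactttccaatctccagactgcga
Slc32a1 (chr2:158610508-158610807, plus strand): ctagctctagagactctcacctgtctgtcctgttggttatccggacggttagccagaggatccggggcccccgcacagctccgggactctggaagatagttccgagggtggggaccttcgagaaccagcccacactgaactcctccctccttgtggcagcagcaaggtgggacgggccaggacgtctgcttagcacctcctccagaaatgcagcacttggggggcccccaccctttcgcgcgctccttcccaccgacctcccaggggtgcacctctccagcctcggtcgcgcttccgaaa
Gabra2 (chr5:71095800-71096099, minus strand): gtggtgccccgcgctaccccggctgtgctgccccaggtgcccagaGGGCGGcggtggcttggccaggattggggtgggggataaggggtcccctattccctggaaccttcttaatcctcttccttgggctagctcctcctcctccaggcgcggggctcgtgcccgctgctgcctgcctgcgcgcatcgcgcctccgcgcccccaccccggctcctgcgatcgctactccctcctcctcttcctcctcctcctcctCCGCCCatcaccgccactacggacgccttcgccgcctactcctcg
Slc6a11 (chr6:114130991-114131290, plus strand): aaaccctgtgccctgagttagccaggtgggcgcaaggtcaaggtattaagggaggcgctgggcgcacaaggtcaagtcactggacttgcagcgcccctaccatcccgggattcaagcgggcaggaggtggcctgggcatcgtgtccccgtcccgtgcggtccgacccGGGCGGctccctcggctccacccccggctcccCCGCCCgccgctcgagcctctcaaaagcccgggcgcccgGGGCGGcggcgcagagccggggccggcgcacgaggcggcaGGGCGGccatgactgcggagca
Gphn (chr12:78226405-78226704, plus strand): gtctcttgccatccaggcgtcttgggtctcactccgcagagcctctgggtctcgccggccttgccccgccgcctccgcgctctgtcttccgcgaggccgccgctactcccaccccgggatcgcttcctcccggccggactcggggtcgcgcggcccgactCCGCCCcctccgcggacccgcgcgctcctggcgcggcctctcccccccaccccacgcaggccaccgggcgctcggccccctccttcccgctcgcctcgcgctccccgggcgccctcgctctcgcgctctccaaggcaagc
Gabrr2 (chr4:33062862-33063161, plus strand): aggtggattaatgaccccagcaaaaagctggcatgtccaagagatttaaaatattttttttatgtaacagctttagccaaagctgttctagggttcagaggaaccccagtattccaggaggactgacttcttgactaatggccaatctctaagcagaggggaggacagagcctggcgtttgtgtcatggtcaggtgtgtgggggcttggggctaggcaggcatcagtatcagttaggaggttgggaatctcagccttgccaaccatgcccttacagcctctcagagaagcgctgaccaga

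The strings read from these windows were counted on both strands. The GC box GGGCGG stood in 16 of the 28 member promoters (57.1%), against 46.2% of all 21263 promoters of the table, and 4 copies lay in the Slc6a11 promoter printed above. The E-box CANNTG stood in 15 member promoters (53.6%), against 69.0% of all promoters. TATAAA stood in 5 (17.9%), against 12.6% of all promoters. These belong to 4 genes, because overlapping Gabra3 windows hold the same copy, and the Gad1 copy is the one in capitals above. The AP-1 string TGANTCA was found only at Slc12a5 among members and in 6.99% of all promoters, and the homeodomain core TAATTA only at Gabrg1 and in 4.53% of all promoters. The cAMP response element TGACGTCA, the best known site of activity-dependent transcription, was in none of the 28 and in 2.23% of all promoters. The palindromic glucocorticoid response element was also in none of the 28, and only 0.0094% of all promoters held it. These are counts of letters in a 300-base window and do not say whether a factor binds. The median GC content was 59.5% in member promoters and 56.3% in all promoters.

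The members differed widely in how much of their locus was open. Peaks covered 90.5% of the Slc12a5 locus, 83.5% of Gabbr2, 77.9% of Gabbr1 and 76.1% of Nlgn2, against a median of 13.3% over all 21887 protein coding loci and 8.35% over the members. Gabbr2 alone held 160 of the 561 peaks, followed by Gabrb1 with 69, Slc6a11 with 40, Gabra5 with 36 and Gabra2 with 28. At the other end Gad2, Gabrg1 and Glra2 had 1 peak each. The single Glra2 peak covered 0.132% of its locus.

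A start peak was assigned to 22 members, and 19 of these were found by the RefSeq promoter window. Abat, Slc12a2 and Gabrd had no window. For these 3 the peak with the highest mean count within 1 kb of either gene end was taken, and it may not lie at the start. Gabra3, Gabra6, Gabrr1, Glra1 and Glra2 had no such peak. Per kb of peak, the median of all start peaks was 6.0 CPM. Gephyrin, the scaffold that clusters both GABA-A and glycine receptors, had the most accessible start with 16.9 CPM per kb, at percentile 98.6 of all start peaks found by a window. Nlgn2, the neuroligin of inhibitory synapses, had 10.4 CPM per kb and Slc12a5, the chloride exporter of mature neurons, had 8.65 CPM per kb. The 3 genes that define GABA neurons were in the lower part of the order: Gad1 had 4.21, Slc32a1 3.38 and Gad2 2.92 CPM per kb, at percentiles 22.4, 12.9 and 7.68. The 6 interneuron markers with a start peak lay between 2.20 (Sox6) and 4.02 CPM per kb (Dlx2). The 5 excitatory neuron markers with one lay between 3.21 (Prox1) and 7.97 CPM per kb (Slc17a7), with Slc17a7 alone above the median of all start peaks. The lowest start peak among members by this rule was that of Gabrr2, a rho subunit best known from the retina, with 2.31 CPM per kb and percentile 1.41. Its promoter window lies inside the annotated gene body. Another Gabrr2 peak, described below, lies within 1 kb of the upstream end of that body and was not ranked here, so this place depends on the start used.

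**Figure D1:**
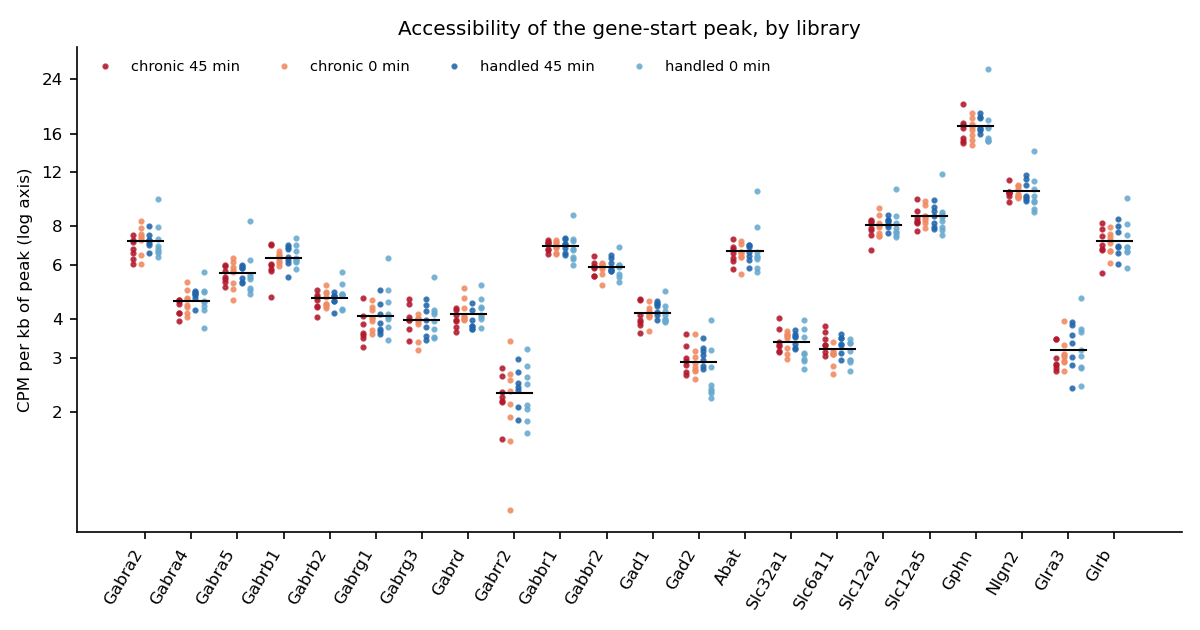
TMM-scaled CPM per kb of the gene-start peak (log axis) in each of the 30 libraries, for the 22 members assigned one. Points are libraries coloured by group and bars are means over all libraries. For Abat, Slc12a2 and Gabrd the peak was chosen at either gene end. All libraries of Gphn lie above all those of the other members, Gabrr2 has the lowest mean, and the groups overlap within each gene.

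Neighbours in this order overlapped in their range over libraries for 20 of 21 pairs. The exception was Gphn, at 14.7 to 25.9 CPM per kb, against 8.94 to 14.1 CPM per kb for Nlgn2. Within a gene the times overlapped as well. The Gabra2 start peak, for example, held 17.4 to 23.1 CPM at 45 min and 17.4 to 28.2 CPM at 0 min, and animal 45 was the highest. The Gad1 start peak held 15.1 to 19.5 CPM at 45 min (median 17.6) and 15.4 to 20.8 CPM at 0 min (median 17.3). The 45 min and 0 min libraries overlapped at all 26 loci and at all 60 named peaks.

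The first comparison asked what 45 min after the start of acute restraint did, averaged over handled and chronically restrained mice. No member peak passed the threshold: edgeR called 0 of 561 at an adjusted p under 0.05, against 0.116% of all 257143 tested peaks. At so low a share, a set of 561 peaks can show 0 calls without differing from other peaks. DESeq2 also called 0. An unadjusted p under 0.05 was reached by 48 member peaks (8.56%), of which 20 were positive and 28 negative, against 7.17% of all peaks. The median log2 change was 0.0028 over member peaks and -0.0025 over all peaks, and 288 of the 561 were positive. When the counts of a locus were summed, 0 of 26 members were called, against 0.414% of all 17633 genes, and 4 reached an unadjusted p under 0.05 (Gabra2, Gabrd, Gabbr2 and Gabrb2), against 8.94% of all genes. Without animal 45 Gabrb2 no longer reached it (p 0.0590), while Gad2 (p 0.0324), Gabrr2 (p 0.0465) and Slc12a5 (p 0.0494) did. The share of all genes that reached it without animal 45 was not counted.

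Below that threshold the roles were not alike in sign. Over the 81 peaks of GABA-A alpha genes the median log2 change was -0.051, with 28 positive. Over the 130 peaks of beta, gamma and delta genes it was -0.051, with 33 positive. Over the 178 GABA-B peaks it was 0.035, with 121 positive. Without animal 45 these medians were -0.050, -0.053 and 0.036. The sign of each of these 3 averaged medians was the same under all 19 alternatives tried, each batch alone included. Their ranges were -0.12 to -0.034, -0.085 to -0.016 and 0.0082 to 0.076. The alternatives reuse the same libraries. In handled mice alone the alpha median was positive in 2 of 19 (0.023 in batch 1). In chronically restrained mice alone the GABA-B median was negative in 1 of 19 (-0.0030 in batch 3). The other splits of these 3 roles by history kept their sign. Peaks of a gene share their libraries and their locus, and single genes weigh heavily in these medians. Gabbr2 gives 160 of the 178 GABA-B peaks, and Gabrb1 gives most of the 130 beta, gamma and delta peaks. Gabra5 gives more of the 81 alpha peaks than any other alpha gene. No test was made of these medians.

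**Figure D2:**
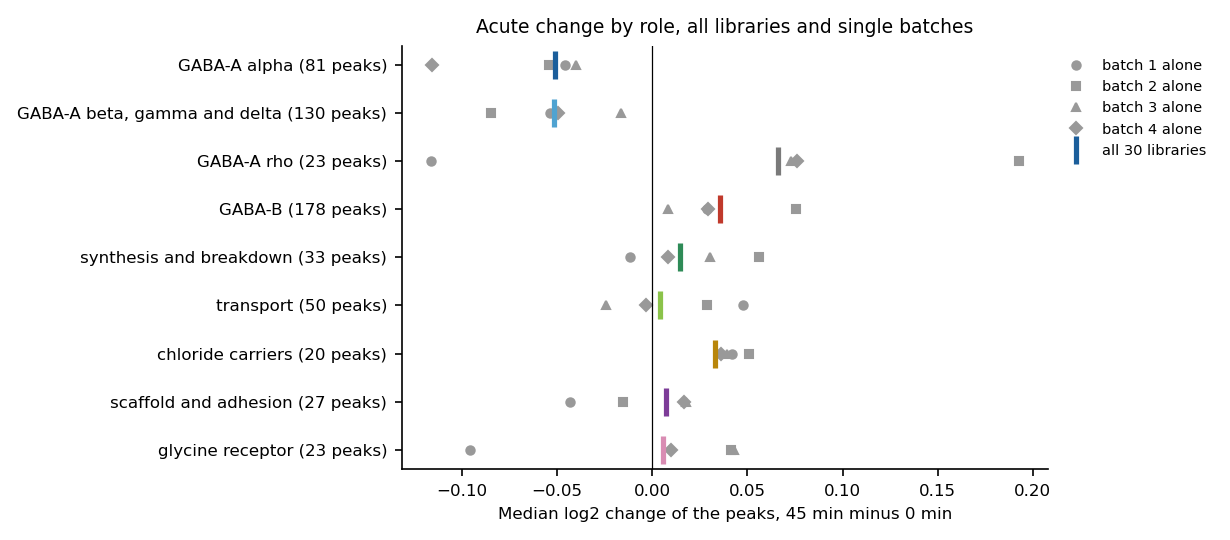
Median log2 change of member peaks by role, 45 min minus 0 min, for all 30 libraries (coloured bars) and for each batch alone (grey marks). GABA-A alpha and beta, gamma and delta medians lie left of 0 and GABA-B medians right of 0 in all 4 batches, while the other roles cross 0 in at least 1 batch or, for chloride carriers, lie right of 0 throughout.

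The remaining roles had medians nearer 0 or few peaks. The rho subunits had a median of 0.066 over 23 peaks, but batch 1 alone gave -0.12. Chloride carriers had 0.033 over 20 peaks, synthesis and breakdown 0.014 over 33, scaffold and adhesion 0.0074 over 27, glycine receptor 0.0056 over 23 and transport 0.0041 over 50. Without animal 45 the glycine receptor median was -0.0067 and the transport median 0.0086.

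Gabra2 encodes an alpha subunit enriched at the axon initial segment and synapses of hippocampal principal cells, through which benzodiazepines lower anxiety-like behaviour in mice. Its locus (chr5:70958392-71095849) had 20 of 28 peaks with a negative acute change. Summed over the locus it held 66.5 to 72.3 CPM (median 69.7) in chronic 45 min mice, 69.4 to 80.1 CPM (median 73.2) in chronic 0 min mice, 66.3 to 74.0 CPM (median 70.7) in handled 45 min mice and 69.1 to 92.9 CPM (median 73.8) in handled 0 min mice. At 45 min 12 of 14 libraries lay below the median of the 0 min libraries, and the ranges overlapped. The log2 change was -0.079 ± 0.027 (SE, unadjusted p 0.00636), and it missed the threshold with an adjusted p of 0.273. Without animal 45 it was -0.065, with an adjusted p of 0.0955. It was negative in all 20 alternatives, between -0.19 and -0.033. In 2 of them the Gabra2 locus passed the threshold: with total count scaling (adjusted p 0.0376) and with the share of counts in the top 1% of peaks as a covariate (adjusted p 0.0153). The share of all genes that passed in those 2 was not counted.

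The peak of Gabra2 with the smallest p of all member peaks lies at chr5:71078474-71080030, inside the gene and 16597 bases downstream of the start. It held 3.19 to 5.35 CPM (median 4.76) in chronic 45 min mice, 4.62 to 6.18 CPM (median 5.33) in chronic 0 min mice, 4.29 to 5.56 CPM (median 4.89) in handled 45 min mice and 4.92 to 7.08 CPM (median 5.49) in handled 0 min mice. In 13 of 14 libraries at 45 min the value was below the median of the 0 min libraries. Such a count follows in part from choosing the peak by its p. The log2 change was -0.23 ± 0.065 (SE, unadjusted p 6.06e-04, adjusted p 0.166), and -0.21 with an adjusted p of 0.136 without animal 45. It was -0.21 ± 0.091 in chronically restrained and -0.25 ± 0.091 in handled mice, and the difference of 0.033 ± 0.13 between histories had an unadjusted p of 0.798. By contrast the start peak of Gabra2, whose promoter is printed above, had a change of -0.045 ± 0.047 (adjusted p 0.916), and -0.022 without animal 45.

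**Figure D3:**
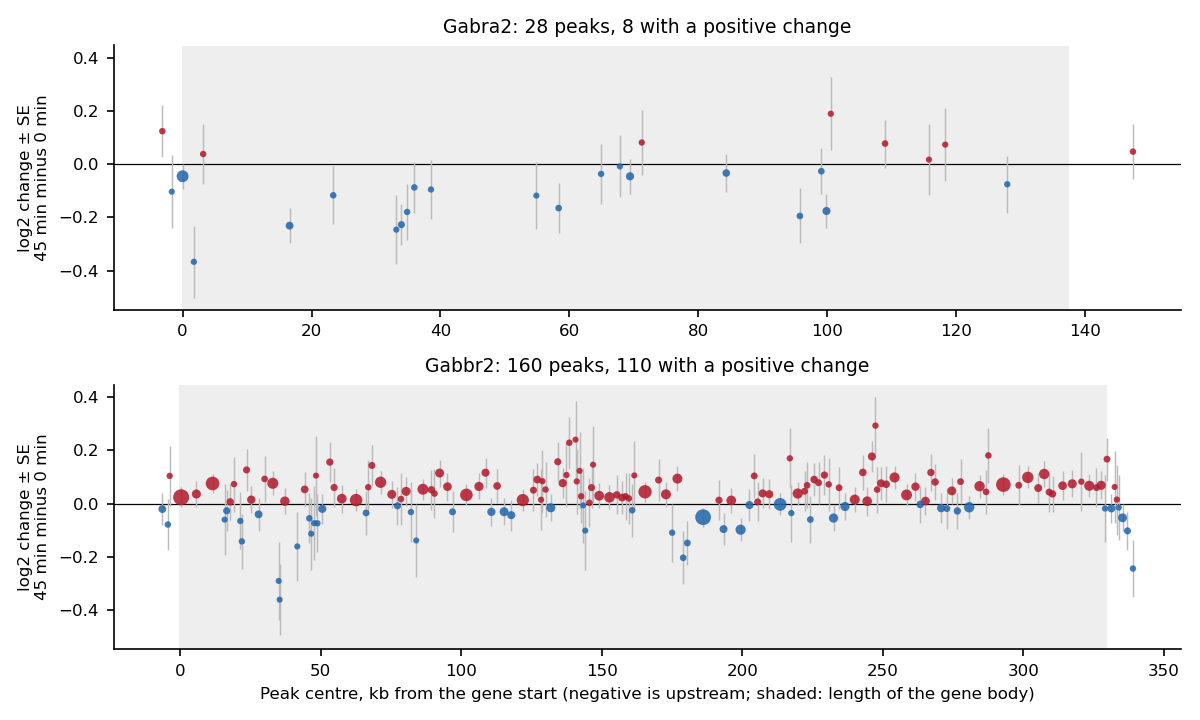
Log2 change with SE, 45 min minus 0 min, of each peak along Gabra2 (top) and Gabbr2 (bottom), against the distance of the peak's centre from the gene start in kb; dot area grows with mean CPM, blue is negative and red positive. Negative changes make up 20 of 28 peaks at Gabra2, and positive ones 110 of 160 at Gabbr2.

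The other alpha subunits with peaks leaned the same way with all libraries, without passing the test. In batch 3 alone the locus change was 0.032 at Gabra4 and 0.035 at Gabra5, while Gabra3 was negative in each batch. Gabra3 lies on the X chromosome and had only 4 small peaks, with a locus change of -0.11 ± 0.079. Gabra4, which pairs with delta in receptors outside the synapse, had -0.055 ± 0.036 (-0.036 without animal 45) and 10 of 13 peaks negative. Gabra5, the subunit of tonic inhibition in pyramidal cells, had -0.019 ± 0.028, and -0.0025 without animal 45, which held the highest value of its group at this locus. Unadjusted p-values at these 3 loci were 0.182, 0.135 and 0.506. Gabra6, a subunit of cerebellar granule cells in mice, had no peak in or near its body.

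All 5 beta, gamma and delta genes had a negative locus change with all libraries. In single batches the sign held for Gabrb2 and Gabrd alone. Batch 3 gave 0.0013 at Gabrb1 and 0.069 at Gabrg3, and batch 1 gave 0.10 at Gabrg1. Gabrd encodes the delta subunit of neurosteroid-sensitive extrasynaptic receptors. Its locus held 71.4 to 80.7 CPM at 45 min (median 75.1) and 73.3 to 91.5 CPM at 0 min (median 77.7), and 12 of 14 libraries at 45 min were below the 0 min median. The log2 change was -0.066 ± 0.026 (unadjusted p 0.0154, adjusted p 0.381), and -0.052 without animal 45 with an adjusted p of 0.201. Gabrb2, a beta subunit of synaptic receptors, held 46.7 to 52.3 CPM at 45 min and 47.6 to 61.1 CPM at 0 min. Its log2 change was -0.057 ± 0.028 (unadjusted p 0.0479, adjusted p 0.551). Gabrb1, which shares its chromosome 5 cluster with Gabrg1, Gabra2 and Gabra4, had 50 of 69 peaks negative and a locus change of -0.046 ± 0.025 (unadjusted p 0.0752). Gabrg1 and Gabrg3 had changes of -0.095 ± 0.073 and -0.038 ± 0.046. Without animal 45 these were smaller, at -0.060 and -0.010. Whether the chromosome 5 cluster moves as 1 domain was not tested.

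**Figure D4:**
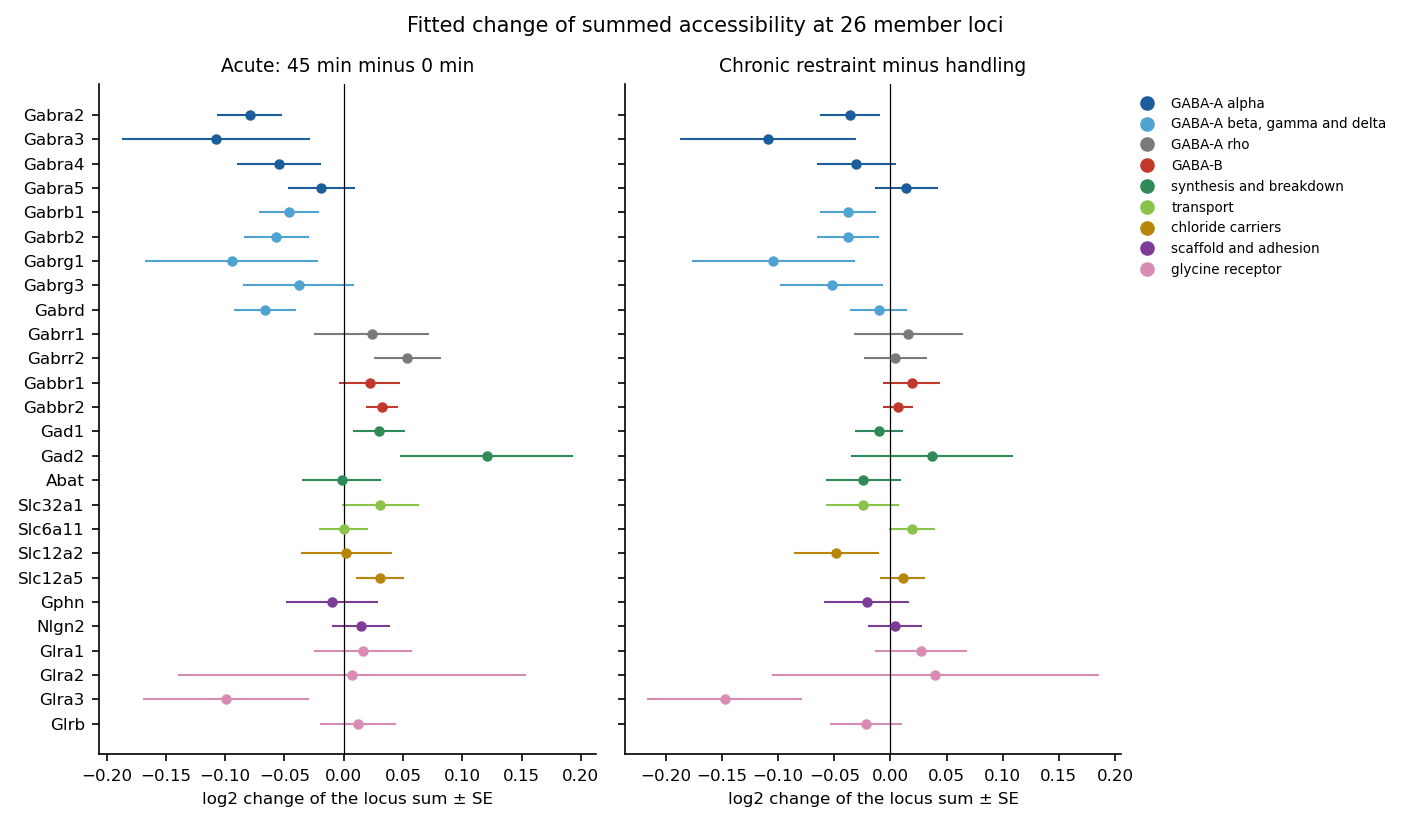
Fitted log2 change with SE of counts summed over each of 26 member loci, for 45 min minus 0 min (left) and chronic restraint minus handling (right), coloured by role. In the left panel the 9 alpha, beta, gamma and delta loci lie left of 0 and both GABA-B loci right of it, and no locus passed the adjusted threshold in either panel.

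GABA-B receptors are obligate pairs, in which Gabbr1 binds GABA and Gabbr2 couples to the G protein. Gabbr2 held 998 to 1079 CPM (median 1023) in chronic 45 min mice, 968 to 1044 CPM (median 1004) in chronic 0 min mice, 976 to 1059 CPM (median 1022) in handled 45 min mice and 980 to 1049 CPM (median 998) in handled 0 min mice. In all, 11 of the 14 libraries at 45 min lay above the median of the 0 min libraries. The log2 change was 0.032 ± 0.014 (unadjusted p 0.0241, adjusted p 0.436) and was positive in all 20 alternatives. Within the gene, the peak at chr4:46744775-46746317 had a change of 0.18 ± 0.060 (adjusted p 0.360), but batch 4 alone gave -0.064. Gabbr1 had a locus change of 0.022 ± 0.026, and 0.035 without animal 45.

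Of the rho subunits, Gabrr2 held the member peak with the second smallest p, at chr4:33057947-33058844. This peak lies within 1 kb of the upstream end of the annotated gene body, and its centre is at -4716 bases from the start whose promoter is printed above. It held 3.98 to 6.26 CPM (median 4.82) in chronic 45 min mice, 3.69 to 6.06 CPM (median 4.40) in chronic 0 min mice, 4.47 to 5.41 CPM (median 5.22) in handled 45 min mice and 3.61 to 5.03 CPM (median 3.97) in handled 0 min mice. In 13 of 14 libraries at 45 min the value was above the 0 min median, and this peak too was chosen by its p. The change was 0.22 ± 0.066 (unadjusted p 0.00134, adjusted p 0.239), with 0.12 ± 0.093 in chronically restrained mice and 0.32 ± 0.093 in handled mice. The difference between histories, -0.20 ± 0.13, had an unadjusted p of 0.134. The Gabrr2 start peak itself was at 0.988 to 1.79 CPM at 45 min and 0.582 to 2.05 CPM at 0 min.

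**Figure D5:**
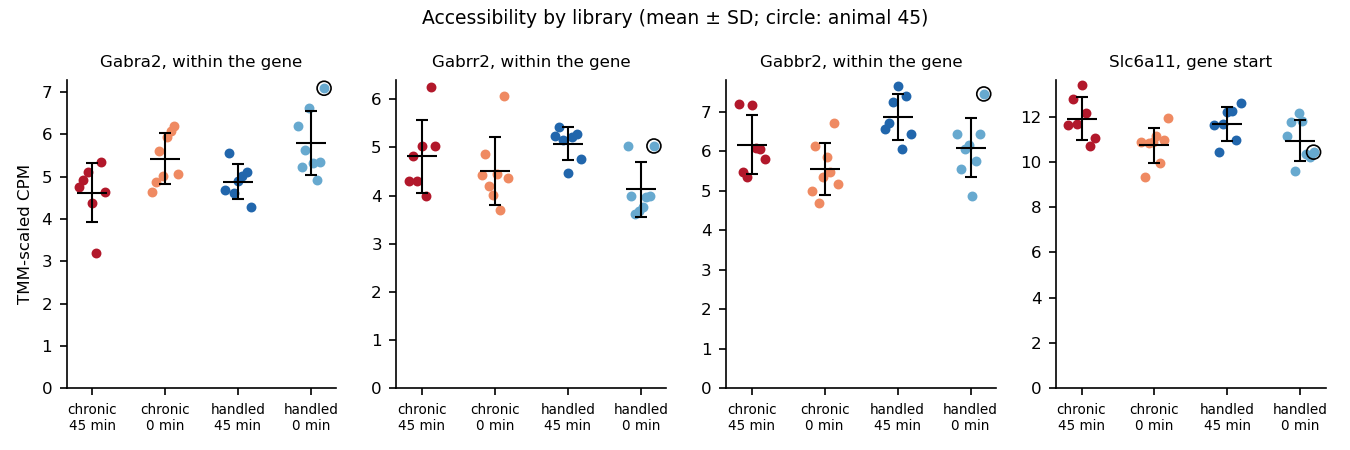
TMM-scaled CPM of 4 member peaks in each library by group, with mean and SD; the circle marks animal 45. The Gabra2 peak has lower means and the Gabrr2, Gabbr2 and Slc6a11 peaks higher means at 45 min than at 0 min in both histories, with overlapping libraries and no adjusted p under 0.05.

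Genes of GABA synthesis showed no change that passed the test. Gad1 and Gad2 encode the glutamate decarboxylases, and Abat the transaminase that degrades GABA. The single peak of Gad2, at its start, held 2.28 to 3.08 CPM at 45 min (median 2.56) and 1.92 to 3.42 CPM at 0 min (median 2.39). Its change was 0.12 ± 0.079 (unadjusted p 0.129), and batch 4 alone gave -0.015. The Gad1 locus held 63.9 to 72.0 CPM at 45 min (median 67.7) and 62.1 to 75.2 CPM at 0 min (median 66.9), with a change of 0.030 ± 0.022. Abat had -0.0019 ± 0.034, and 0.013 without animal 45.

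Slc32a1 encodes the vesicular carrier that loads GABA and glycine, and 9 of its 10 peaks had a positive acute change. Its locus held 31.4 to 38.1 CPM at 45 min (median 34.2) and 30.4 to 39.8 CPM at 0 min (median 33.8), a change of 0.031 ± 0.033 (unadjusted p 0.351). The start peak of Slc6a11, an astrocytic GABA transporter, held 10.7 to 13.4 CPM (median 11.7) in chronic 45 min mice, 9.34 to 11.9 CPM (median 10.9) in chronic 0 min mice, 10.4 to 12.6 CPM (median 11.7) in handled 45 min mice and 9.60 to 12.1 CPM (median 10.8) in handled 0 min mice. In all, 12 of the 14 libraries at 45 min were above the 0 min median, at the start peak with the smallest p. The change was 0.12 ± 0.047 (unadjusted p 0.0127, adjusted p 0.505) and was positive in each batch alone, between 0.085 and 0.17. Over the whole Slc6a11 locus 19 of 40 peaks were positive, and a small peak inside the gene at chr6:114146380-114146693 had the opposite sign, -0.39 ± 0.14 (adjusted p 0.379).

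Among chloride carriers, Slc12a5 had a locus change of 0.030 ± 0.020 (unadjusted p 0.143) and the importer Slc12a2 0.0023 ± 0.039 (0.022 without animal 45). Gphn had -0.0098 ± 0.039, which turned to 0.016 without animal 45, the highest library of its group at this locus. Nlgn2 had 0.014 ± 0.024, and 0.028 without animal 45. Of the glycine receptor genes, the alpha subunits Glra1, Glra2 and Glra3 had 0.016 ± 0.041, 0.0073 ± 0.15 and -0.099 ± 0.070, and Glrb, the subunit that binds gephyrin, had 0.012 ± 0.032. Without animal 45 these were 0.032 for Glra1, 0.040 for Glra2, -0.065 for Glra3 and 0.021 for Glrb. The wide error of Glra2 goes with a single peak of 29.5 counts per library.

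Split by history, the acute comparison gave no call either. In chronically restrained mice 0 of 561 member peaks were called by edgeR, against 0.00272% of all peaks, and 22 (3.92%) reached an unadjusted p under 0.05, against 4.73%. In handled mice 0 were called, against 0.0109% of all peaks, and 38 (6.77%) reached the unadjusted p, against 5.52%. For summed loci the counts were 0 of 26 in both, against 0.017% of all genes in chronically restrained mice and 0.125% in handled mice. An unadjusted p under 0.05 was reached by 2 loci in chronically restrained mice (Gabra3 and Gabbr2), against 4.41% of all genes, and by 1 locus in handled mice (Gabra2), against 4.73%. Without animal 45 Gabra2 no longer reached it in handled mice (-0.048, p 0.108), while Gad1 (p 0.0473) and Gad2 (p 0.00858) did. In chronically restrained mice Gabra2 (p 0.00623) and Gabrd (p 0.00728) then reached it as well. The share of all genes that reached it without animal 45 was not counted in either history. DESeq2 called 0 member peaks in both. These comparisons are not shown to differ: the test of history by time called 0 member peaks and 0 member loci, against 0% of all peaks and of all genes, and 18 peaks (3.21%) reached an unadjusted p under 0.05, against 3.03%. No member locus reached it, against 0.715% of all genes. Without animal 45 only Gabra3 did (p 0.0390), and the share of all genes was not counted. The smallest p of that test was at a Gad1 peak inside the gene, chr2:70587895-70588931. It held 3.10 to 3.96 CPM in chronic 45 min mice, 2.63 to 3.36 CPM in chronic 0 min mice, 2.17 to 3.29 CPM in handled 45 min mice and 2.22 to 3.72 CPM in handled 0 min mice, an interaction of 0.35 ± 0.15 (unadjusted p 0.0184), and -0.13 in batch 3 alone.

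A history of chronic restraint, averaged over both times, also left no call. edgeR called 0 of 561 member peaks and 0 of 26 loci, against 0% of all peaks and of all genes, and DESeq2 called 0 member peaks. An unadjusted p under 0.05 was reached by 19 peaks (3.39%), against 5.44% of all peaks. The median change was 0.0016 over member peaks and -0.0049 over all peaks. At 0 min alone 0 were called and 21 (3.74%) reached the unadjusted p, against 0% called and 4.6% of all peaks. At 45 min alone 0 were called and 14 (2.50%) reached it, against 0% called and 3.78% of all peaks. Of the summed loci 1 reached an unadjusted p under 0.05 over both times (Glra3), against 6.88% of all genes, 1 at 0 min (Glra3), against 3.86%, and 1 at 45 min (Gabra3), against 2.45%. The locus with the smallest p over both times was Glra3, an alpha subunit of the glycine receptor, with -0.15 ± 0.069 (unadjusted p 0.0407, adjusted p 0.699). It held 4.70 to 6.03 CPM (median 5.42) in chronic 45 min mice, 4.52 to 7.27 CPM (median 5.96) in chronic 0 min mice, 5.11 to 7.14 CPM (median 5.74) in handled 45 min mice and 5.01 to 10.1 CPM (median 6.41) in handled 0 min mice, whose highest value is animal 45. Without that animal the Glra3 change was -0.095 (p 0.112), and -0.097 (p 0.241) at 0 min alone, so Glra3 no longer reached the unadjusted threshold. At 0 min Gabra5 (p 0.00855), Gad2 (p 0.0412) and Gabbr1 (p 0.0450) then reached it, all with an adjusted p of 0.977. The share of all genes that then reached it was not counted. The peak with the smallest p was inside Gabra5, chr7:57483723-57484157, at 0.896 to 1.76 CPM in chronic 45 min mice, 0.902 to 1.52 CPM in chronic 0 min mice, 0.643 to 1.29 CPM in handled 45 min mice and 0.515 to 1.17 CPM in handled 0 min mice. The groups overlapped, and the change of 0.37 ± 0.12 had an adjusted p of 0.857.

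Females and males were compared on the 556 autosomal member peaks. No peak was called by edgeR or DESeq2, against 0.00157% of all autosomal peaks, and no locus, against 0.0117% of all autosomal genes. An unadjusted p under 0.05 was reached by 30 peaks (5.40%), against 5.11% of all, and by 0 of 24 autosomal loci, against 6.13% of all autosomal genes. Without animal 45 it was reached by Gabra4 (p 0.0117) and Gabrr1 (p 0.0444), and the share of all autosomal genes was not counted. With all libraries the smallest p of a peak was at Gabrg3, chr7:57356681-57357621, with 0.26 ± 0.080 for females minus males (adjusted p 0.736).

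The decarboxylases and the vesicular carrier are made by the same cells, and their locus sums were compared over the 30 libraries. Pearson's r was 0.49 for Gad1 and Slc32a1 (permutation p adjusted over 3 pairs 0.0177; Spearman's rho 0.27, adjusted p 0.232), 0.42 for Gad2 and Slc32a1 (0.0296; rho 0.37, adjusted p 0.140) and 0.33 for Gad1 and Gad2 (0.0729; rho 0.21, adjusted p 0.265). Without animals 29 and 45, the 2 libraries farthest from the median of the first gene of each pair, r was lower, at 0.18, 0.13 and -0.0074. Leaving out the most extreme libraries narrows the range and can by itself lower r. After removing group, sex and batch means over all 30 libraries, r was 0.42, 0.42 and 0.16. Within batches 1, 2, 3 and 4 (8, 8, 8 and 6 libraries) r for Gad1 and Slc32a1 was 0.044, 0.84, 0.20 and 0.78, for Gad2 and Slc32a1 it was 0.19, 0.40, -0.029 and 0.90, and for Gad1 and Gad2 it was 0.21, 0.19, 0.28 and 0.68. The summed peaks of 8 interneuron marker genes held 164 to 179 CPM in chronic 45 min mice, 167 to 185 CPM in chronic 0 min mice, 170 to 179 CPM in handled 45 min mice and 160 to 203 CPM in handled 0 min mice. In the averaged acute comparison the 75 peaks of these markers had a median change of -0.031, with 32 positive, while the median of the 8 summed loci was 0.017. Of the 75 peaks 1 was called, against 0.116% of all peaks. It lies at Adarb2, chr13:8388185-8389657, with a change of 0.33 ± 0.070 (adjusted p 0.0248). The part of these marker genes in the results above was not tested.

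A further list of 36 genes of the inhibitory synapse, among them glycine transporters, GABA-A receptor assembly proteins, GABA-B auxiliary subunits and interneuron peptides, held 715 peaks. Of the 715, 1 rose and 0 fell in the averaged acute comparison, a share near the 0.116% of all peaks called. It lies at Magi2, a scaffold protein of synapses, at chr5:20302896-20303859, with a change of 0.34 ± 0.074 (adjusted p 0.0228). The median change of the 715 peaks was -0.0029, and no summed gene of the list was called in any of the 8 comparisons. In the other 7 comparisons 0 of the 715 peaks were called.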

How the data were processed

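ATAC-seq was run on ventral hippocampus nuclei of 30 mice in 4 groups of history and time. The authors deposited raw counts, whole numbers per peak region on GRCm38, in 1 table. Per the submitters' processing notes, Trimmomatic, Bowtie2, Picard and Genrich 0.6.1 were used. How regions were merged, and whether reads, fragments or insertions were counted, is not given in the sources used here. The table held 2 columns that matched no sample, which were not used.

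Regions were assigned to RefSeq protein coding genes (GRCm38.p6) with GenomicRanges 1.54.1 in R 4.3.3. The gene table gives extents without exons, so exon, intron and UTR are not stated. Counts were fitted in edgeR 4.0.16 (TMM, filterByExpr, robust quasi-likelihood, Benjamini-Hochberg over all tested features) with the 4 groups, sex and batch in 1 model, per peak and again for counts summed over each gene's peaks. filterByExpr removed 6 peaks, none a member peak. Levels are TMM-scaled CPM, and changes are log2 with the SE of the fitted contrast. Correlations used 100000 permutations. The fits were tested on simulated data.

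For each member the text names the start peak and the peak with the smallest averaged acute p, and for each comparison the 3 member peaks with the smallest p, not all of which are printed. The members, lists and rules were chosen with earlier results of these data known. Alternatives were other scalings (RLE and total count), DESeq2 1.42.0, other filters and windows, other covariates, single sexes, single batches, each batch left out and animal 45 left out.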

Additional observations from a re-analysis of the deposited data

Results flagged for a closer look

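Within each group, a library was marked when its gap to the nearest other library, divided by the range of the group, was above Dixon's 95% critical value for the number of libraries. Of 192 sets of values tested (locus sums and gene-start peaks in 4 groups), 22 were marked, where chance gives about 9.6. Of these 22, 18 were animal 45, the handled female at 0 min described above, and in all 18 it was the highest of its group of 8.

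As locus sums, animal 45 held 92.9 CPM at Gabra2 (the others of its group 69.1 to 76.7 CPM), 126 CPM at Gabra5 (the others 95.0 to 104 CPM), 174 CPM at Gabrb1, 72.0 CPM at Gabrg3, 91.5 CPM at Gabrd, 217 CPM at Gabbr1, 53.5 CPM at Slc12a2, 107 CPM at Gphn (the others 70.8 to 78.0 CPM), 10.1 CPM at Glra3 and 29.004 CPM at Glrb. At gene-start peaks it held 28.2 CPM at Gabra2, 25.1 CPM at Gabra5, 8.87 CPM at Gabrg3, 49.7 CPM at Gabbr2, 48.8 CPM at Slc12a2, 61.7 CPM at Slc12a5, 62.2 CPM at Gphn and 112 CPM at Nlgn2. The start peak of Gphn had 36.4 to 42.4 CPM in the other 7 libraries of that group. The high values of animal 45 cover receptor, scaffold and chloride carrier genes. Its share of counts within 1 kb of gene ends was 42.1%, also above that of every other library (at most 40.3%), and the part of that share in these values was not tested.

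The other 4 marks fell on single libraries. Animal 3 (chronic 0 min) held 112 CPM at the Gabra5 locus, the highest of its group. Animal 1 (handled 45 min) held 52.9 CPM at the Gabrg3 locus, also the highest. Animal 24 (chronic 0 min) held 154 CPM at the Nlgn2 locus, the lowest of its group. Animal 52 (handled 45 min) held 13.1 CPM at the Gabra4 start peak, also the lowest.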

How the results depend on the processing

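The counts of 0 called member peaks and loci held under every alternative run, with these exceptions for the averaged acute effect. With the share of counts in the top 1% of peaks as a covariate, 2 member peaks and 3 loci fell: the Gabra2 peaks at chr5:71078474-71080030 (-0.24, adjusted p 0.0316) and chr5:70995569-70996308 (-0.21, adjusted p 0.0485), and the loci of Gabra2 (-0.089, adjusted p 0.0153), Gabrd (-0.080, adjusted p 0.0112) and Gabrb1 (-0.059, adjusted p 0.04998). With total count scaling 1 locus, Gabra2, was called (adjusted p 0.0376). The share of all genes called in these 2 settings was not counted, so these loci have no background beside them. The cause was not tested. Over all peaks that covariate moved the calls to 498 higher and 1265 lower, against 188 higher and 111 lower. Total count scaling gave 280 higher and 245 lower. Leaving out animal 45 gave 485 higher and 196 lower, and leaving out batch 2 gave 34 higher and 6 lower. DESeq2 was run on peaks and not on summed loci. The acute median of member peaks was 0.023 in batch 2 alone, and between -0.0092 and 0.0097 when a batch or animal 45 was left out (chronic median -0.0034 to 0.0076). With total count scaling r was -0.034 for Gad1 and Gad2, 0.23 for Gad1 and Slc32a1 and 0.16 for Gad2 and Slc32a1, and with gene-start peaks r was 0.16 for Gad1 and Slc32a1.

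Start peaks named only as such were judged by the size of their move and not by sign. For the other named peaks, each in the comparison that named it, signs of uncalled changes turned as follows. Their cause was not tested. In batch 1 alone the turned changes were 0.16 at Gabrb1 71792047 (acute, chronically restrained mice), 0.10 at Gabrg1 70842132, -0.034 at Gabrg3 57356681 (sex) and -0.12 at Gabrr1 33123989, which also gave -0.026 in males. In batch 2 alone Glra1 55582153 gave 0.031. In batch 3 alone they were 0.19 at Gabra4 71594679 (sex), 0.21 at Gabra5 57453581 (acute, chronically restrained mice), -0.13 at Gad1 70587895 (interaction) and -0.059 at Nlgn2 69824904. In batch 4 alone they were 0.0077 (acute, handled mice) and -0.30 (interaction) at Gabrb1 72086123, -0.064 at Gabbr2 46744775, -0.015 at Gad2 22621783 and -0.29 at Glrb 80845705. Glra2 165264899, at 0.0060 with all libraries, gave -0.0087 without a batch term, -0.023 with the covariate above, -0.50 in batch 2 alone, and -0.018, -0.14 and -0.0063 without batches 1, 3 and 4. No paired analysis was possible because animal numbers are unique to 1 animal and pair no libraries across groups. Batch 4 holds 6 libraries, and a median member peak of 66.9 counts limits what a single peak can show.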
